A study of Homo sapiens with 8 samples.

Results

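The clustered protocadherins are cadherin-like adhesion proteins encoded by 3 neighbouring gene clusters, alpha, beta and gamma, on the long arm of chromosome 5. Members were taken by symbol from the deposited count table: the numbered PCDHA, PCDHB, PCDHGA and PCDHGB genes, PCDHAC1 and PCDHAC2, and PCDHGC3 to PCDHGC5, with no pseudogenes. The rule found 52 of the 20339 genes, of which 14 belong to the alpha cluster, 16 to the beta cluster and 22 to the gamma cluster. PCDHA1 is not analysed here.

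In neurons, each cell uses its own small set of these genes, and the proteins made from them let a cell tell its own processes from those of other cells. Each variable exon has its own promoter. In alpha and gamma the variable exon is spliced to constant exons shared by the whole cluster, whereas each beta gene is a single exon with no constant part. CTCF and cohesin, which fold the locus into loops, and DNA methylation are known to govern which promoters are used. The C-type genes PCDHAC1, PCDHAC2 and PCDHGC3 to PCDHGC5 lie at the ends of the alpha and gamma clusters and are used more broadly than the others.

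RNA-seq was available for 8 libraries from OVCAR3 and COV318, which are established human ovarian cancer cell lines, with 1 library for each condition. OVCAR3-MGPKO had been derived with a pair of CRISPR guides against exon 1 of MGP, the gene of an extracellular matrix protein, and knockout clones had been isolated. OVCAR3-CTR was its control, and all 4 OVCAR3 libraries came from passage 4. COV318-MGP carried a lentiviral vector with the human MGP cDNA and COV318-CTR the empty vector, both had been selected with puromycin, and the 4 COV318 libraries came from passage 18. Each was sequenced as bulk, the adherent culture, and as OCSC, the cells of spheres grown without attachment in medium with EGF and FGF2. Whether OVCAR3-CTR was also a single clone, and how many clones the MGPKO library held, is not given in the sources used here. With 1 library per condition there was no replicate check, so no p-value is given. Every interval is a 95% interval for counting error only.

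Total counts on genes ran from 12294591 to 37393919 per library. The gene manipulated in these lines, MGP, was read first. With the cDNA, COV318 cells had 40393 MGP counts in bulk and 28694 in OCSC, and with the empty vector 1 and 0. In OVCAR3, MGP had 0 counts in both bulk libraries, 1 in OVCAR3-CTR OCSC and 2 in OVCAR3-MGPKO OCSC, so its level does not check the knockout label. The study reports MGP protein in OVCAR3 cells, and its knockout was checked there by RT-qPCR, western blot and immunofluorescence. These libraries do not show that loss. The COV318-MGP and COV318-CTR libraries stood far apart. Across all genes, the correlation of log2(normalized count + 1) was 0.757 between them in bulk and 0.747 in OCSC, whereas it was 0.803 between OVCAR3-CTR and COV318-CTR in bulk. Of 13 markers of ovarian carcinoma epithelium, 13 were at least 2-fold lower in COV318-MGP in bulk and 11 in OCSC. PAX8, SOX17, KRT7 and CLDN3 had 0 counts in both COV318-MGP libraries. KRT8, also on the list, was higher in OCSC, with 106 counts in COV318-CTR and 983 in COV318-MGP, and KRT18 had 2396 and 4810. The summed normalized count of that list was 50835 in COV318-CTR bulk, 18979 in COV318-CTR OCSC, and with MGP it was 1788 in bulk and 8366 in OCSC. All 5 mesothelial markers were lower as well, from a sum of 8137 to 3.85 in bulk and from 4907 to 2.86 in OCSC. In OCSC 3 of the 5 had an interval that excludes no change. NEFL, a neurofilament gene, had 0 counts in both COV318-CTR libraries, and with MGP it had 2564 counts in bulk and 857 in OCSC. The neuronal list it belongs to moved both ways, with 4 of 9 higher and 3 lower in bulk and 4 higher and 2 lower in OCSC. ELAVL3 went from 93 to 0 counts in bulk and from 34 to 1 in OCSC, and SNAP25 from 298 to 102 and from 82 to 42. The effect of MGP and any other difference between the 2 COV318 stocks cannot be told apart, and every COV318 comparison rests on these libraries.

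All 52 members lie on the plus strand of chromosome 5 in hg38, from PCDHA2 at 140794852 to the end of PCDHGC5 at 141512977, a span of 718 kb. The alpha cluster covers 217 kb, the beta cluster 198 kb and the gamma cluster 182 kb. Reads in the constant exons of alpha and gamma belong to many genes at once. Levels between genes are therefore given per kilobase of exon that no other annotated gene covers, whether a member or not. This unshared length was 2011 to 10557 bases, with a median of 3258. Members also resemble each other in sequence. Of the 50-base stretches of a member, 0% to 45.3% occurred again within the locus, most often for PCDHB8, followed by PCDHB10 at 33.4% and PCDHB2 at 28.3%. The own values of such genes are less certain.

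Promoter sequences were looked up for the members because many of them moved together. RefSeq promoters (GRCh38.p14, 250 bases before to 50 after the start) were matched for 46 of the 52, and the remaining 6 were PCDHA3, PCDHA13, PCDHB6, PCDHB11, PCDHGA12 and PCDHGC5. Variable exons of the clusters are known to share a conserved element around the letters CGCT close to the start, and PCDHAC2 and PCDHGC4 are known exceptions. Searched on both strands, CGCT was found in 45 of the 46 promoters and in 69.4% of the 27305 promoters in the table. PCDHA9 was the 1 without it. On the gene's own strand and within the 120 bases before the start, it was found in 43 of 46, against 31.8% of all promoters. The occurrence nearest to 60 bases upstream lay at a median of 57.5 bases before the start. The windows of 30 bases around it are shown for most of the members described in full, with CGCT in capitals, 5′ to 3′ on the plus strand, to show how the letters beside it differ between clusters.

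PCDHA4, chr5:140806982-140807011: agccacatgatgtCGCTctttaccacaaaa
PCDHA10, chr5:140855844-140855873: agccaccggatgtCGCTgtcgtccacaaaa
PCDHA12, chr5:140875247-140875276: agtcacatgatgtCGCTctacactcagaag
PCDHB2, chr5:141094547-141094576: agacgcggggtggCGCTgcagccttagaag
PCDHB3, chr5:141100396-141100425: gaacgcatggtggCGCTgttgactaagaag
PCDHB5, chr5:141135176-141135205: aaattaggacgcctggtggCGCTgcaggct
PCDHB15, chr5:141245317-141245346: caacgcatggtggCGCTgcaggctaaggct
PCDHGA4, chr5:141354963-141354992: agactctgggtgtCGCTgttcaccaatcag
PCDHGA8, chr5:141392571-141392600: ggactgtaagcgcCGCTgttcacctactgg
PCDHGA11, chr5:141420975-141421004: gggctctaggcgcCGCTgctcaccaatcag
PCDHGB1, chr5:141350028-141350057: aacctctgggcgcCGCTgtcgaccaaaagg
PCDHGB4, chr5:141387620-141387649: tgactctgggcgcCGCTgttggccaaagtg
PCDHAC1, chr5:140926223-140926252: tagaaggtgtggtCGCTcacgttcaccgtc
PCDHAC2, chr5:140966422-140966451: tgagccctcctacCGCTccctttccccctc
PCDHGC4, chr5:141484955-141484984: tgagcccgggagcCGCTgtctgccaatcgg

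The run GGTGGCGCT, chosen after the sequences were read, stood before the start of 12 of the 14 beta genes with an entry, of no alpha or gamma gene, and of 0.260% of all promoters. The run CGCTGTT stood before 10 of 11 gamma A genes and 3 of 7 gamma B genes, before 1 of 14 beta genes, PCDHB3, and before 0.919% of all promoters. The C-type windows shown held neither run. Letters of the core of the general CTCF motif were found in 1 of 46 members on either strand, against 10.6% of all promoters, and TATAA in 17 of 46, against 21.1%. The CTCF letters searched were 1 fixed pattern, which requires neither the conserved element described above nor either run. Its low count in the members therefore does not show that CTCF sites are rare there. Whether the conserved element or the runs in the windows shown are CTCF sites was not tested. CpG pairs were fewer than in promoters at large, with a median of 7 per 300 bases in the members and 14 over all promoters. The 4 C-type promoters stood out with a median of 20.5, and PCDHGA11 had 12, the most of any gamma A gene. PCDHB3 and PCDHB4 also had 12, and PCDHGB4, PCDHGB5 and PCDHGB6 had more, with 13, 14 and 16. A link between CpG pairs and the members' levels was not tested. A match to letters is a description of this window and not a binding site, and a missing match does not show that CTCF fails to bind.

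The clusters were on in the COV318-CTR libraries and low in all others, as the map of the 52 members in the 8 libraries shows. All 52 members had more than 3 counts in COV318-CTR bulk and 45 did in COV318-CTR OCSC. A count of 3 was taken as the floor, and no fold is given where both libraries are at or under it. Only 14 members passed that floor in OVCAR3-CTR bulk, 29 in OVCAR3-MGPKO bulk, 14 in OVCAR3-CTR OCSC, and 32 in OVCAR3-MGPKO OCSC. In COV318-MGP it was passed by 14 members in bulk and by 9 in OCSC. The summed count of all members was 15157 in COV318-CTR bulk and 3169 in COV318-CTR OCSC. It was 352 and 184 in the COV318-MGP libraries, and between 182 and 834 in the 4 OVCAR3 libraries. In bulk samples, fewer cells with the transcript and less transcript per cell cannot be told apart.

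**Figure D1:**
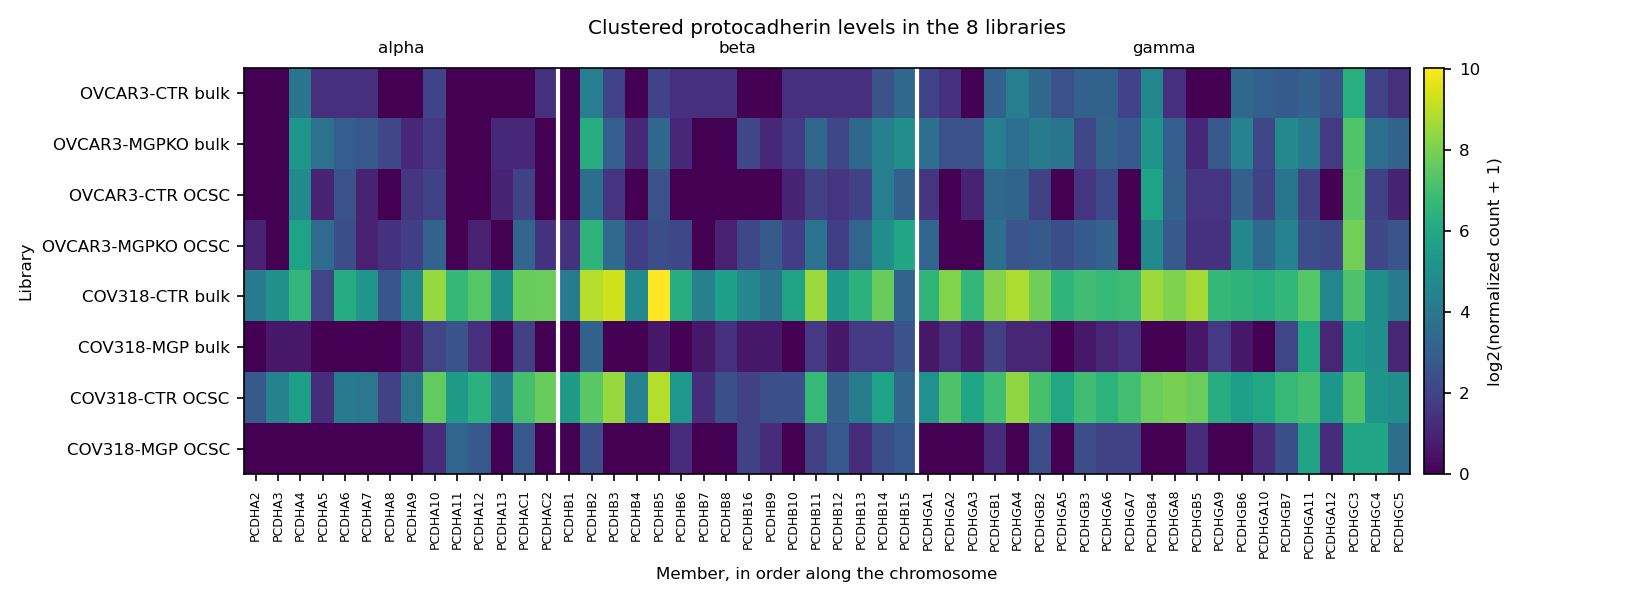
Level of each of the 52 members (columns, in chromosomal order, white lines between clusters) in each library (rows), as log2(normalized count + 1). The 2 COV318-CTR rows are bright along all 3 clusters, the COV318-MGP rows are dark except at PCDHGA11, PCDHGC3 and PCDHGC4, and the OVCAR3 rows are low except at PCDHGC3 and a few others.

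Within COV318-CTR bulk the levels spanned a wide range. Per kilobase of unshared exon, PCDHB5 was highest at 358 normalized counts (interval 342 to 374), followed by PCDHB3 at 211 (199 to 223) and PCDHB2 at 206 (193 to 221). The intervals of PCDHB3 and PCDHB2 overlap, but this depends on the length used. Per kilobase of all exon bases PCDHB3 was at 186 and PCDHB2 at 116. PCDHGA4 came next at 164, then PCDHGB5 and PCDHGB4 at 151 each. The lowest was PCDHA5 at 0.883. By cluster, the median per kilobase was 13.7 in alpha, 17.3 in beta and 36.6 in gamma. The top 3 genes made up 68.5% of the normalized counts of the beta cluster, 56.7% of alpha and 33.4% of gamma. In COV318-CTR OCSC, PCDHB5 was again highest per kilobase at 164, and 8 of the 10 highest members were shared with bulk.

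In OVCAR3 the pattern was another. PCDHGC3, PCDHB2 and PCDHGB4 were the only members with 10 or more counts in all 4 OVCAR3 libraries, and 15 members were at or under the floor in all 4. Only 21 members reached 10 counts in any OVCAR3 library, and the share of all genes at the floor was not counted. PCDHA3 and PCDHA11 had 0 counts in every OVCAR3 library. PCDHGC3, the most widely used C-type gamma gene, had 52 counts in OVCAR3-CTR bulk, 137 in OVCAR3-MGPKO bulk, 186 in OVCAR3-CTR OCSC and 271 in OVCAR3-MGPKO OCSC. That was 28.6%, 24.7%, 44.1% and 32.5% of all clustered protocadherin counts, against 1.83% in COV318-CTR bulk and 3.31% in COV318-CTR OCSC.

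The comparison of COV318-MGP with COV318-CTR asks which genes differ when MGP is added to a line that lacks it. In bulk, 50 of 52 members had a log2 fold change of -1 or lower on log2(normalized count + 1), and 25.7% of all 20339 genes did. None was higher by that measure, against 24.1% of all genes. In OCSC, 48 of 52 were lower, against 27.3% of all genes, and none was higher, against 26.7%. The median log2 fold change of the members was -5.72 in bulk and -4.39 in OCSC, while that of all genes was -0.01 and 0. With the further condition that the counting interval excludes no change, 50 members counted as lower in bulk, against 24.5% of all genes, and 41 in OCSC, against 22.9%, where COV318-CTR was the library with the lowest total count. In both cultures 48 members were lower, against 18.6% of all genes. Every gene in the count table had at least 10 counts in some library. Only 21 members reached 10 in an OVCAR3 library and 4 in a COV318-MGP library. The members that did so in neither are in the table only through COV318-CTR. That they were lower elsewhere was thus partly fixed in advance.

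All 3 clusters took part. In bulk 14 of 14 alpha, 15 of 16 beta and 21 of 22 gamma genes were lower, and in OCSC 14, 13 and 21. The summed alpha counts went from 2538 in COV318-CTR bulk to 26 in COV318-MGP bulk, which is 95.6-fold lower per normalized count (interval 65.1 to 147). The beta sum went from 5801 to 43, 132-fold lower (98.0 to 183), and the gamma sum from 6818 to 283, 23.6-fold lower (20.9 to 26.7). In OCSC the alpha sum was 37.6-fold lower (22.6 to 67.6), the beta sum 43.9-fold lower (28.6 to 71.4) and the gamma sum 12.2-fold lower (10.3 to 14.5). The gamma sum was the least lowered in both cultures, as the plot of summed levels shows, but 247 of its 283 counts in COV318-MGP bulk and 123 of 148 in OCSC came from the 3 genes PCDHGA11, PCDHGC3 and PCDHGC4. By gene, the median log2 fold change was most negative in gamma, at -5.96 in bulk and -5.05 in OCSC, against -5.10 and -4.05 in alpha and -4.75 and -3.18 in beta. With COV318-MGP near 0 and 1 added to each count, the control level limits how negative this value can be. The median normalized count in COV318-CTR bulk was 54.4 in alpha, 53.3 in beta and 111 in gamma. In COV318-CTR OCSC it was 19.3, 19.3 and 113. The order of the clusters by gene thus partly follows these levels and does not show that gamma genes fell most.

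**Figure D2:**
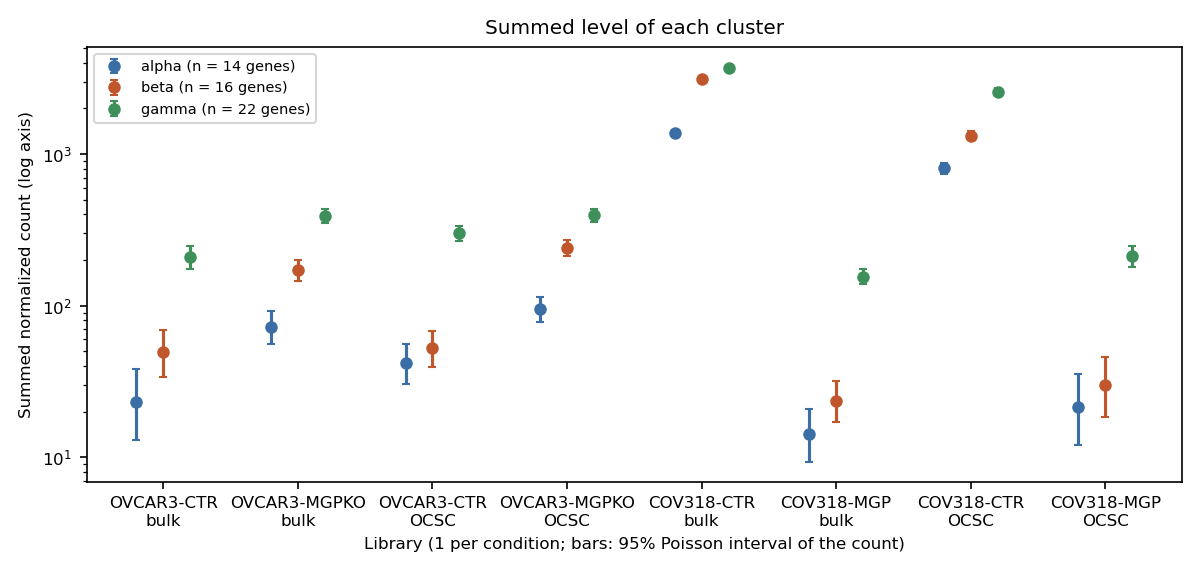
Summed normalized count (log axis) of the alpha, beta and gamma clusters in each library, with the 95% Poisson interval of the count as bars. COV318-CTR bulk holds the highest sums, with 1367 for alpha, 3124 for beta and 3672 for gamma, and COV318-MGP bulk the lowest, with 14.3, 23.6 and 156.

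The most abundant members were at or near 0 in COV318-MGP. PCDHB5 had 1932 counts in bulk and 322 in OCSC of COV318-CTR, against 1 and 0 in COV318-MGP. The ratio was 1892-fold lower in bulk (interval 339 to 74770), and at least 111-fold lower in OCSC, taking 3 counts in the library at 0. PCDHB3 had 1159 and 236 counts in the COV318-CTR libraries and 0 in both COV318-MGP libraries, at least 378-fold lower in bulk and at least 81.7-fold lower in OCSC. PCDHB2 had 882 and 119 counts in bulk and OCSC of COV318-CTR, and 14 and 3 in COV318-MGP, 61.7-fold lower in bulk (36.6 to 113) and 41.2-fold lower in OCSC (13.8 to 203). For each of these genes both COV318-MGP libraries were below both COV318-CTR libraries. PCDHB2 was the only beta gene with 10 or more counts in a COV318-MGP library.

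Among the alpha genes, PCDHA10 had 665 and 131 counts in bulk and OCSC of COV318-CTR against 6 and 1 in COV318-MGP. It was 109-fold lower in bulk (49.6 to 297) and 136-fold lower in OCSC (24.0 to 5412). PCDHA12 went from 311 to 3 in bulk and from 57 to 4 in OCSC, and PCDHA4 from 184 to 1 and from 33 to 0. PCDHA11 kept a trace, with 9 and 6 counts in COV318-MGP against 190 and 29 in COV318-CTR. Of the C-type alpha genes, PCDHAC1 had 384 and 90 counts in COV318-CTR and 5 and 4 in COV318-MGP. PCDHAC2 had 389 and 139 in COV318-CTR and 0 in both COV318-MGP libraries, at least 127-fold lower in bulk and at least 48.1-fold lower in OCSC. Both C-type alpha genes thus fell with the rest of their cluster.

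Among the gamma A and gamma B genes, PCDHGA4 went from 823 to 2 counts in bulk and from 221 to 0 in OCSC. PCDHGA8 went from 507 and 169 to 0 in both, at least 166-fold and at least 58.5-fold lower. PCDHGB4 went from 690 and 142 to 0 in both, at least 225-fold and at least 49.1-fold lower. PCDHGB5 had 762 and 143 counts in COV318-CTR and 1 in each COV318-MGP library, and PCDHGB1 had 533 and 82 against 5 and 1. These 5 genes sit among others that fell as far. In all, 14 members had 0 counts in both COV318-MGP libraries, and 35 had at most 3 in both. Of the 41 members with 50 or more counts in COV318-CTR bulk, 28 were at 3 or fewer counts in COV318-MGP bulk, whereas 5.95% of all 13268 such genes were. In OCSC 18 of 22 were, against 5.36% of all 11546 such genes.

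**Figure D3:**
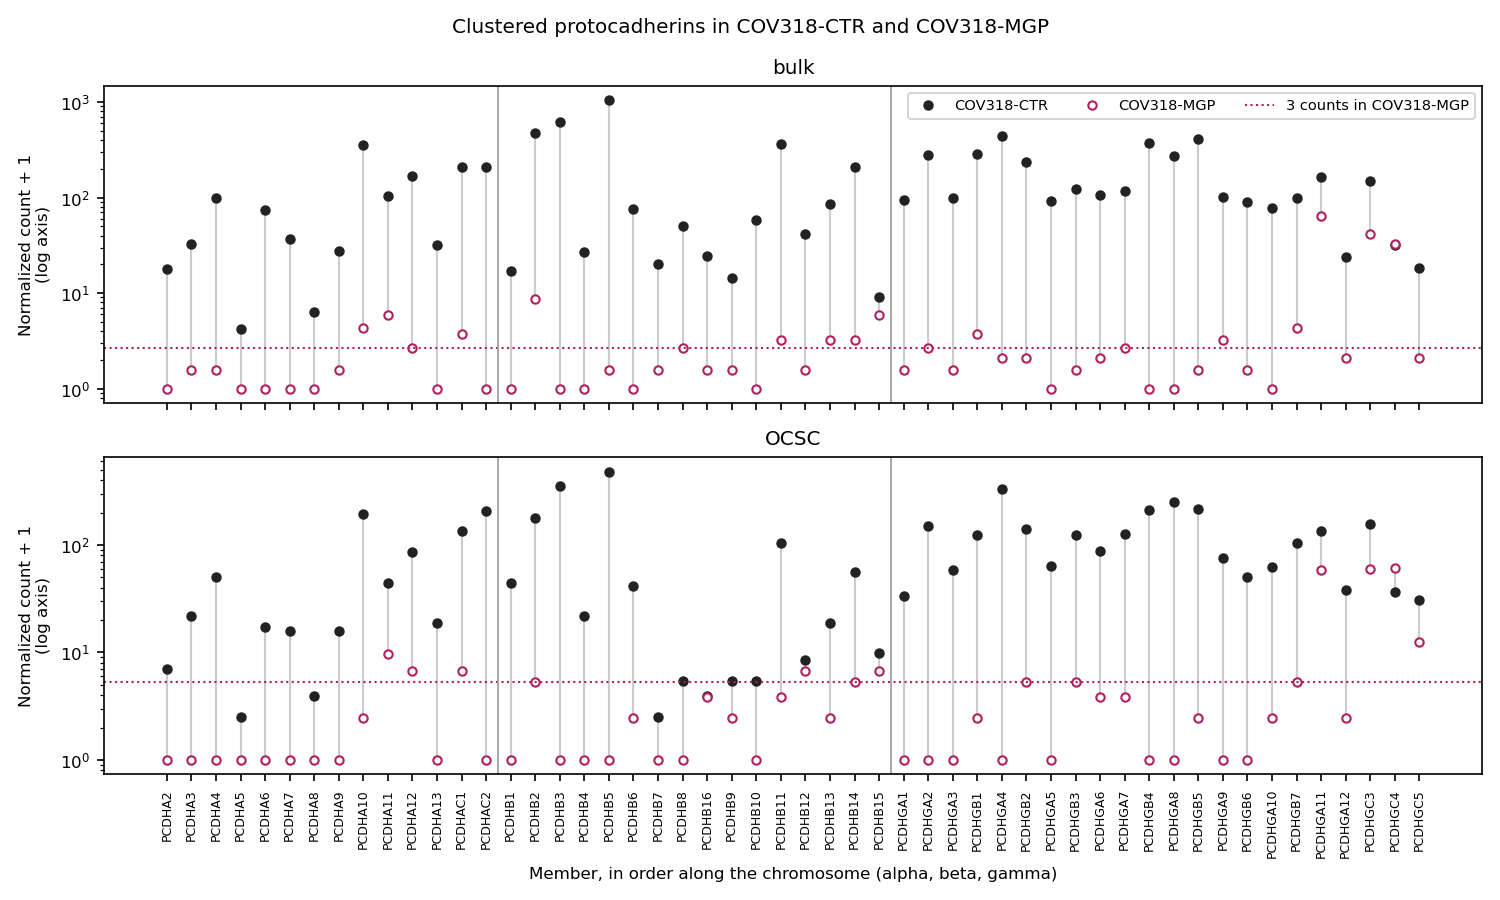
Normalized count + 1 (log axis) of each member in COV318-CTR (filled) and COV318-MGP (open), in bulk above and OCSC below, with members in chromosomal order, vertical lines between clusters and a dotted line at 3 counts in the COV318-MGP library. Filled points lie far above open ones along the 3 clusters, whereas PCDHGA11 and PCDHGC3 lie close to their control and PCDHGC4 lies at or above it.

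Some single genes near the far end of the gamma cluster differed. PCDHGA11, PCDHGC3 and PCDHGC4 were the only members with more than 10 counts in both COV318-MGP libraries. PCDHGA11 had 304 and 90 counts in bulk and OCSC of COV318-CTR and 116 and 40 in COV318-MGP, 2.57-fold lower in bulk (2.07 to 3.21) and 2.34-fold lower in OCSC (1.59 to 3.48). PCDHGC3 had 278 and 105 counts in COV318-CTR and 74 and 41 in COV318-MGP, 3.68-fold (2.84 to 4.82) and 2.66-fold lower (1.84 to 3.91). Both were lower in either culture, but by far less than most other gamma genes.

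PCDHGC4 had 58 and 24 counts in COV318-CTR and 57 and 42 in COV318-MGP. It was the 1 gamma gene not called lower, at 1.0-fold in bulk (0.684 to 1.47) and 1.69-fold higher in OCSC (0.998 to 2.91), and both intervals include no change. PCDHGC5, the last gene of the locus, had 32 and 20 counts in COV318-CTR and 2 and 8 in COV318-MGP, 15.7-fold lower in bulk (4.00 to 135) and 2.60-fold lower in OCSC (1.09 to 6.81). PCDHGA12, which lies between PCDHGA11 and PCDHGC3, had 43 and 25 counts in COV318-CTR and 2 and 1 in COV318-MGP, so the genes that stayed on were not all side by side. Together PCDHGA11, PCDHGC3 and PCDHGC4 held 70.2% of all member counts in COV318-MGP bulk (65.1% to 74.9%) and 66.8% in OCSC (59.5% to 73.6%), against 4.22% and 6.91% in COV318-CTR.

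The remaining members not called lower were beta genes with few counts. PCDHB15, at the end of the beta cluster, had 15 and 6 counts in COV318-CTR and 9 and 4 in COV318-MGP, with log2 fold changes of -0.61 in bulk and -0.56 in OCSC. In OCSC, PCDHB12 had 5 counts in COV318-CTR and 4 in COV318-MGP, and PCDHB16 had 2 in each, so a difference was not detectable at this depth.

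The genes beside the clusters did not go silent. TAF7, an intronless gene of the general transcription machinery between the beta and gamma clusters, had 9134 and 2695 counts in bulk and OCSC of COV318-CTR and 4132 and 1476 in COV318-MGP. It was 2.16-fold lower in bulk (2.09 to 2.25) and 1.90-fold lower in OCSC (1.78 to 2.02). Of the 14 listed genes between or beside the clusters, all had more than 3 counts in all 8 libraries, and 4 were lower and 2 higher in bulk, while 2 were lower and none higher in OCSC. ARAP3 was the lowest of the list relative to control, 9.21-fold lower in bulk and 4.21-fold lower in OCSC, and ZMAT2 was 2.02-fold and 2.61-fold lower. DIAPH1, just past PCDHGC5, had log2 fold changes of -0.17 and 0.77. PCDHGB8P, the 1 cluster pseudogene in the table, went from 60 to 6 counts in bulk and from 27 to 2 in OCSC.

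Protocadherins outside the clusters moved both ways. Of 12, 5 were higher and 3 lower in bulk, and 7 were higher and 4 lower in OCSC. PCDH9 rose from 272 to 16759 counts in bulk and from 133 to 5995 in OCSC, 62.9-fold (55.8 to 71.2) and 43.4-fold (36.6 to 52.0). PCDH10 rose 36.9-fold and 28.5-fold, and PCDH20 went from 1 count in each control to 956 and 134. PCDH1 fell from 2537 to 190 counts in bulk and from 2128 to 106 in OCSC, 13.1-fold and 20.8-fold. PCDH7, the most abundant in COV318-CTR bulk, had log2 fold changes of 0.36 and 1.20.

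Genes known to act on the locus were also read. Of 13 genes for CTCF and cohesin, 2 were higher and none lower in bulk, and 3 were higher and 1 lower in OCSC. CTCF itself had log2 fold changes of -0.22 and 0.00, while the cohesin subunits SMC1A and STAG2 were 2.76-fold and 2.32-fold higher in bulk and 3.05-fold and 3.09-fold higher in OCSC. Of 16 genes for DNA and histone methylation and silencing, 4 were higher and 4 lower in bulk, and 4 were higher and 2 lower in OCSC. DNMT3B, a de novo DNA methyltransferase linked to the choice of protocadherin promoter, was 4.91-fold higher in bulk and 3.44-fold higher in OCSC. DNMT1, which copies methylation at replication, was 2.40-fold and 2.46-fold higher, and UHRF1, which recruits it, 3.42-fold and 4.02-fold. TET1, which oxidises methylated cytosine, was 3.70-fold and 9.62-fold higher, while DNMT3A was 3.43-fold and 3.72-fold lower. SMCHD1, a silencer of the locus, had log2 fold changes of -0.19 and 0.03. The part of these genes in the members' levels was not tested.

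Of 13 genes for processing and cytoplasmic partners of protocadherins, 2 were higher and 3 lower in each culture. ADAM10, the protease that sheds their outer part, was 3.86-fold lower in bulk and 2.98-fold lower in OCSC. CYFIP2, a subunit of the WAVE complex that binds protocadherin tails, rose from 9 to 2429 counts in bulk and from 2 to 1016 in OCSC. RET, a receptor that pairs with clustered protocadherins in neurons, rose from 2 to 143 and from 2 to 44. Of 5 classical cadherins, 1 was higher and 1 lower in bulk, and 1 higher and 2 lower in OCSC. CDH6 went from 26928 to 5 counts in bulk and from 1921 to 0 in OCSC, and CDH11 from 0 to 848 and from 1 to 26.

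Neuronal markers did not move as a set, with 4 of 9 higher and 3 lower in bulk and 4 higher and 2 lower in OCSC. Of 9 mesenchymal markers, 1 was higher and 4 lower in bulk, and 5 were higher and 2 lower in OCSC. The summed normalized count of the neuronal list was 1509 and 996 in bulk and OCSC of COV318-CTR and 2706 and 2789 in COV318-MGP. That of the mesenchymal list was 17580 and 4907 in COV318-CTR and 14311 and 23627 in COV318-MGP. Apart from KRT8 and KRT18 in OCSC, the epithelial and mesothelial lists moved with the members, as given above. The part of these lists in the result was not tested.

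The comparison of OVCAR3-MGPKO with OVCAR3-CTR is by label the loss of MGP in the other line. MGP had 0 counts in OVCAR3-CTR bulk and 1 in OVCAR3-CTR OCSC, so no loss of its transcript was measured. The members start from far lower levels here, and the COV318 libraries enter only through the size factors. In bulk 30 of 52 members had a log2 fold change of at least 1, against 15.7% of all genes, and 3 had one of -1 or lower, against 10.3%. In OCSC 22 were higher, against 9.16% of all genes, and 1 was lower, against 5.81%. Most of these rested on a few counts. With the further condition that the interval excludes no change, 6 of 52 members were higher in bulk, against 9.25% of all genes, and 7 of 52 in OCSC, against 5.38%. Of the genes past the threshold, 1881 of 3189 also met that condition in bulk and 1095 of 1863 in OCSC, whereas 6 of 30 and 7 of 22 members did. By cluster, 2 alpha, 3 beta and 1 gamma gene met both conditions in bulk, and 1 alpha, 5 beta and 1 gamma gene in OCSC.

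The summed levels rest on more counts than single genes, but a few genes held much of each sum. The beta sum had 32 counts in OVCAR3-CTR bulk and 149 in the library labelled OVCAR3-MGPKO bulk, 3.47-fold higher (2.36 to 5.26), and 56 and 275 in OCSC, 4.60-fold higher (3.44 to 6.25). The alpha sum went from 15 to 63 counts in bulk, 3.13-fold higher (1.76 to 5.92), and from 45 to 109 in OCSC, 2.27-fold higher (1.59 to 3.29). The gamma sum went from 135 to 342 in bulk, 1.89-fold higher (1.54 to 2.32), and from 321 to 450 in OCSC, 1.31-fold higher (1.14 to 1.52). All 3 sums were higher in both cultures. In bulk the intervals of beta and alpha overlap, and in OCSC 2 genes described below, PCDHB2 and PCDHB15, held 104 and 68 of the 275 beta counts. In OVCAR3-MGPKO OCSC, PCDHGC3 held 271 of the 450 gamma counts and PCDHA4 held 63 of the 109 alpha counts. In OVCAR3-CTR OCSC they held 186 of 321 and 29 of 45.

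PCDHB2, PCDHB15 and PCDHA5 were higher in both cultures with intervals that exclude no change. Without the interval 14 members were higher in both, against 3.78% of all genes. PCDHB2 had 12 counts in each OVCAR3-CTR library, 65 in OVCAR3-MGPKO bulk and 104 in OVCAR3-MGPKO OCSC, 4.04-fold higher in bulk (2.16 to 8.21) and 8.12-fold higher in OCSC (4.45 to 16.2). PCDHB15 had 6 and 8 counts in bulk and OCSC of OVCAR3-CTR and 26 and 68 in OVCAR3-MGPKO, 3.23-fold (1.30 to 9.59) and 7.96-fold higher (3.82 to 19.2). PCDHA5, with 1 count in each OVCAR3-CTR library, had 11 and 12 in OVCAR3-MGPKO. PCDHA5 and PCDHB15 were the lowest members of their clusters by count in COV318-CTR bulk, with 6 and 15 counts.

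Other members met both conditions in 1 culture. PCDHA4, the leading alpha gene in OVCAR3, had 9 and 29 counts in bulk and OCSC of OVCAR3-CTR and 33 and 63 in OVCAR3-MGPKO. It was 2.73-fold higher in bulk (1.28 to 6.49) and 2.03-fold higher in OCSC (1.29 to 3.28), where its log2 fold change of 0.998 was just under 1. PCDHB14 was 4.22-fold and PCDHGB7 4.10-fold higher in bulk, and PCDHB3, PCDHB11 and PCDHGB6 were 5.15-fold, 4.68-fold and 3.16-fold higher in OCSC. PCDHB9 went from 0 to 7 counts in OCSC, at least 2.19-fold higher. PCDHGB4 was the 1 member lower with an interval that excludes no change, against 3.64% of all genes in OCSC. It had 59 counts in OVCAR3-CTR OCSC and 30 in OVCAR3-MGPKO OCSC, 2.10-fold lower (1.33 to 3.38). In bulk it had 15 and 31 counts, with an interval that includes no change.

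PCDHGC3, the best measured member in this line, was 1.96-fold higher in bulk (1.42 to 2.76) and 1.36-fold higher in OCSC (1.13 to 1.65), with log2 fold changes of 0.96 and 0.45, below 1 in both. PCDHGC4 had 2 and 3 counts in bulk and OCSC of OVCAR3-CTR and 10 and 4 in OVCAR3-MGPKO, and PCDHGC5 had 1 in each control and 7 and 6 in OVCAR3-MGPKO. PCDHAC1 had 0 and 3 counts in the controls and 1 and 10 in OVCAR3-MGPKO, and PCDHAC2 had 0 to 2 counts in every OVCAR3 library. All these intervals except those of PCDHGC3 include no change.

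**Figure D4:**
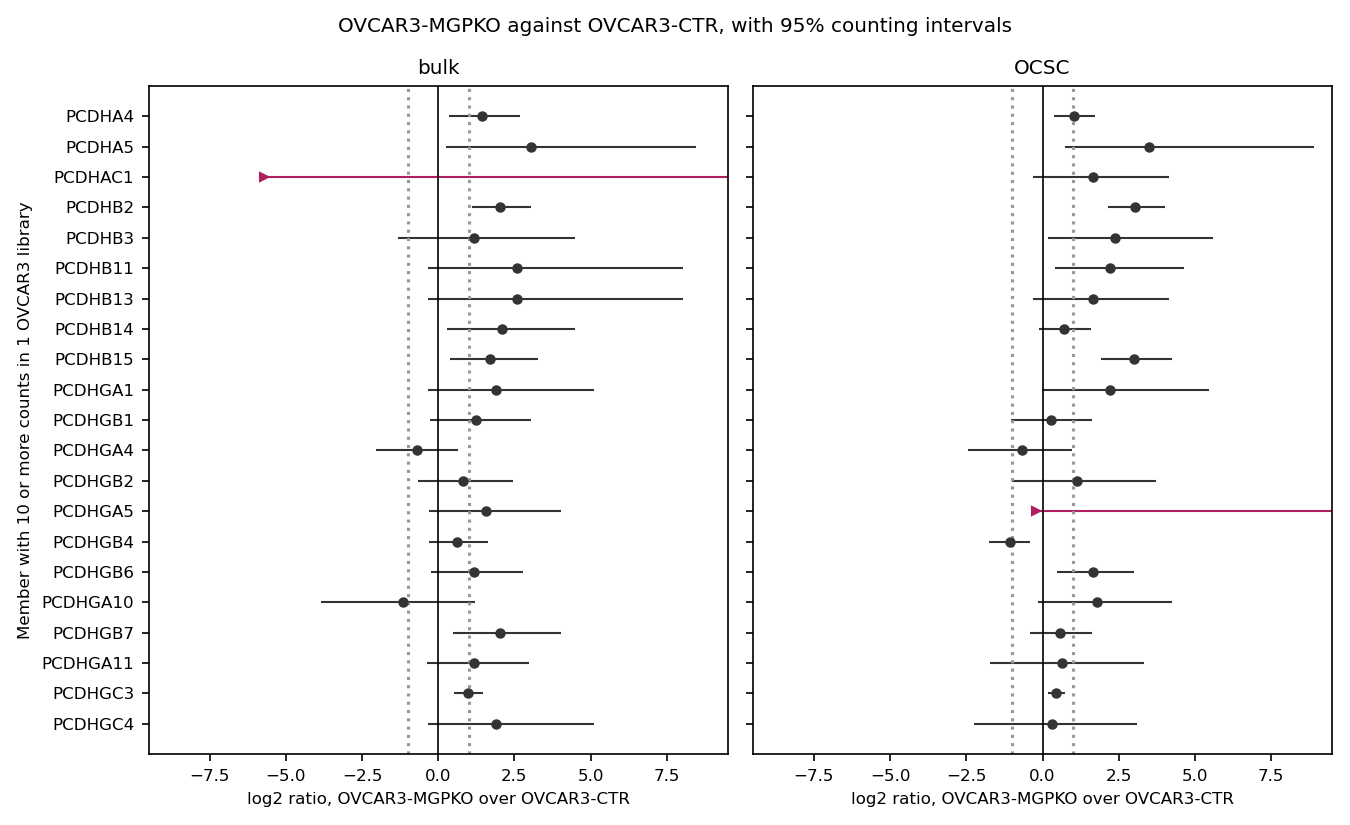
Log2 ratio of normalized counts, OVCAR3-MGPKO over OVCAR3-CTR, in bulk (left) and OCSC (right) for the 21 members with 10 or more counts in at least 1 OVCAR3 library, with 95% counting intervals. Arrows mark the lower bound where OVCAR3-CTR had 0 counts, and dotted lines mark -1 and 1. PCDHA4, PCDHA5, PCDHB2, PCDHB15 and PCDHGC3 lie clear of 0 in both panels, and PCDHGB4 lies below 0 in OCSC.

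Several members that led in COV318-CTR had few counts in the OVCAR3 libraries, while PCDHB2 and PCDHGB4, given above, had 10 or more in each. In the order OVCAR3-CTR bulk, OVCAR3-MGPKO bulk, OVCAR3-CTR OCSC and OVCAR3-MGPKO OCSC, PCDHB5 had 2, 8, 5 and 5 counts, and PCDHB3 had 2, 6, 2 and 11. PCDHGA4 had 12, 10, 9 and 6, PCDHGA8 had 1, 6, 8 and 7, and PCDHGA11 had 5, 15, 3 and 5. PCDHGB5 had 0, 1, 2 and 2, and PCDHGB1 had 5, 16, 10 and 13. PCDHA10 had 2, 2, 3 and 9, and PCDHA12 had 1 count in OVCAR3-MGPKO OCSC and 0 in the others. Beside these, PCDHA4 had the most counts of the alpha genes in all 4 libraries, and PCDHB2 of the beta genes in all but OVCAR3-CTR OCSC, where PCDHB14 had more.

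Of the 14 genes between or beside the clusters, 4 were higher and 1 lower in bulk and none in OCSC. Among 13 genes for CTCF and cohesin, 1 was higher in bulk and none in OCSC, and none of the 16 genes for methylation and silencing passed in either culture. Of 13 processing genes and partners, none passed in bulk and 1, CYFIP2, was higher in OCSC. Of 12 non-clustered protocadherins, 7 were higher and 1 lower in bulk, and 5 were higher in OCSC. In bulk 5 of the higher ones had an interval that excludes no change. The lower one, PCDH12, had 2 counts in OVCAR3-CTR bulk and 0 in OVCAR3-MGPKO bulk. PCDH7 went from 27 to 2039 counts in bulk and from 1078 to 5605 in OCSC, 56.3-fold (38.6 to 85.6) and 4.87-fold higher (4.56 to 5.20), and PCDH20 and PCDH18 were higher in both cultures as well.

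Of the marker lists, none of the 13 epithelial markers passed in bulk and 2 were lower in OCSC. Of the classical cadherins, 1 of 5 was higher and 1 lower in bulk, and 1 was lower in OCSC. The lower one in bulk, CDH11, had 1 count in OVCAR3-CTR and 0 in OVCAR3-MGPKO. Of 9 mesenchymal markers, 5 were higher in each culture and none was lower. With an interval that excludes no change, 4 were higher in bulk and 2 in OCSC. Of 9 neuronal markers, 2 were higher and 3 lower in bulk and 1 was higher in OCSC, and of 5 mesothelial markers 2 were higher in bulk and 1 was lower in OCSC. VIM, the mesenchymal filament vimentin, went from 23 to 94 counts in bulk and from 319 to 2858 in OCSC. The part of these markers in the members' levels was not tested.

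The cultures were compared within each line to see whether the clusters differed between growth forms, on the same libraries as above. In COV318-CTR 18 of 52 members were lower in OCSC than in bulk, against 10.2% of all genes, and 16 of 52 also had an interval that excludes no change, against 6.59% of all genes. The beta cluster differed most, with 11 of its 16 genes lower, against 5 of 14 alpha and 2 of 22 gamma genes. The beta sum was 2.37-fold lower (2.20 to 2.54), the alpha sum 1.69-fold lower (1.54 to 1.86) and the gamma sum 1.42-fold lower (1.35 to 1.5).

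The difference was not even along the beta cluster. The split into an earlier and a later stretch was made after the values were seen. The 6 genes from PCDHB1 to PCDHB6 had 4190 counts in bulk and 747 in OCSC, 2.03-fold lower (1.88 to 2.20). The 10 genes from PCDHB7 to PCDHB15, with PCDHB16 among them, had 1611 and 142, 4.11-fold lower (3.46 to 4.92), and 9 of these 10 were lower. PCDHB10 had 107 counts in bulk and 3 in OCSC, 12.9-fold lower (4.31 to 63.7). PCDHB8 went from 91 to 3, 11-fold lower (3.64 to 54.3), and PCDHB7 from 36 to 1, 13-fold lower (2.20 to 529). PCDHB13 was 4.77-fold, PCDHB14 3.75-fold and PCDHB11 3.51-fold lower. Of the 50-base stretches of PCDHB8, PCDHB10 and PCDHB13, 45.3%, 33.4% and 23.7% occurred again within the locus, so their own values are uncertain.

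Neither end gene of the beta cluster was lower. PCDHB1, the first gene of the beta cluster, was the 1 member called higher in OCSC, against 12.1% of all genes, with 30 counts in bulk and 29 in the far smaller OCSC library, 2.67-fold higher (1.54 to 4.60). PCDHB15, the last gene of the later stretch, had 15 and 6 counts, with a log2 fold change of 0.13. At the other end of the locus the gamma C-type genes were not lower. PCDHGC3 had a normalized count of 149.7 in bulk and 156 in OCSC, a log2 fold change of 0.06, and the log2 fold changes of PCDHGC4 and PCDHGC5 were 0.19 and 0.75. PCDHAC2 was also level, at 209.5 and 207. PCDHA6 was the alpha gene with the most negative change, 4.45-fold lower (2.41 to 9.12).

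**Figure D5:**
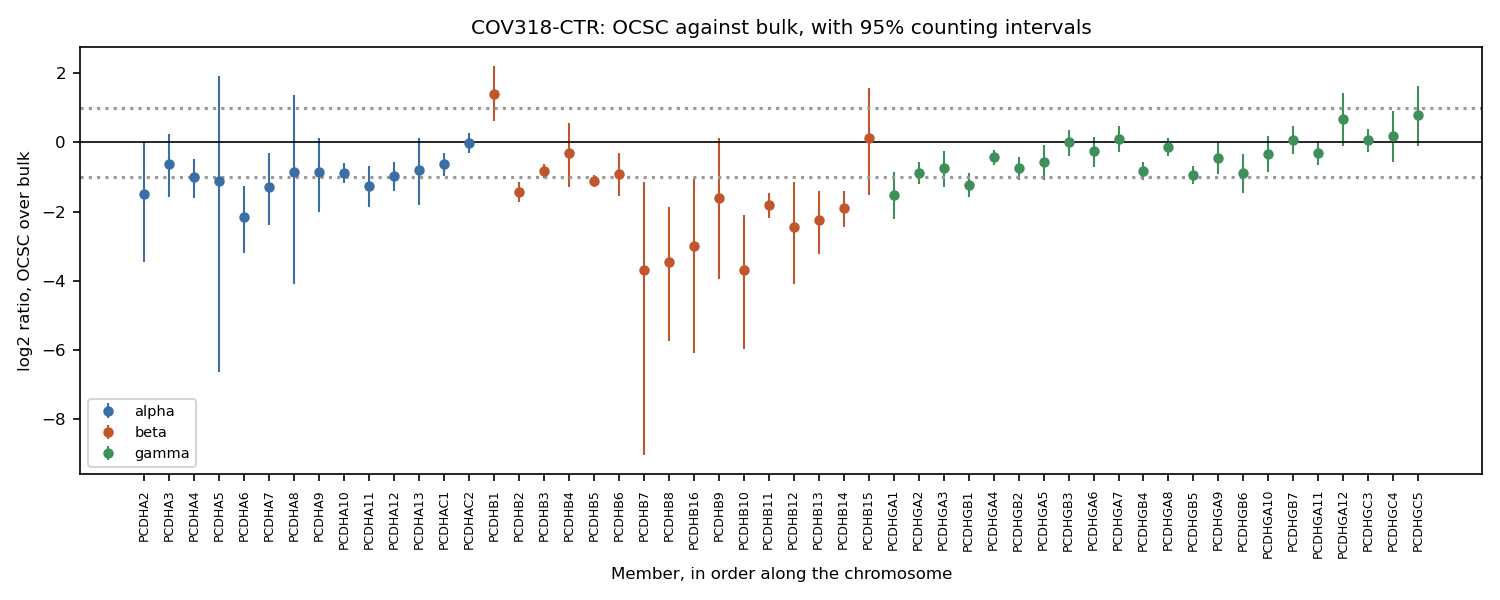
Log2 ratio of normalized counts in COV318-CTR, OCSC over bulk, for the 52 members in chromosomal order, with 95% counting intervals and dotted lines at -1 and 1. The lowest ratios lie between PCDHB7 and PCDHB14, PCDHB1 lies above 1, and most gamma genes lie between -1 and 0.

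In OVCAR3 single members differed both ways in the same comparison, while no cluster sum was lower in OCSC. In OVCAR3-CTR the gamma sum was 1.44-fold higher (1.17 to 1.77), and the intervals of alpha, 1.82-fold (0.994 to 3.51), and beta, 1.06-fold (0.674 to 1.69), include no change. In OVCAR3-MGPKO the beta sum was 1.40-fold higher (1.15 to 1.73), and the intervals of alpha, 1.32-fold (0.957 to 1.82), and gamma, 1.0-fold (0.868 to 1.16), include no change. In OVCAR3-CTR 13 members were lower in OCSC, against 15% of all genes, and 10 were higher, against 13.2%. With the interval as a further condition, 0 of 52 members were lower, against 9.22% of all genes, and 3 of 52 were higher, against 9.63%. The higher ones were PCDHGC3, PCDHGB4 and PCDHB14, at 2.17-fold (1.58 to 3.0), 2.38-fold (1.33 to 4.52) and 4.04-fold higher (1.20 to 21.2). In OVCAR3-MGPKO 10 members were lower, against 11.7% of all genes, and 7 were higher, against 8.06%. PCDHGA5, PCDHGA7 and PCDHGA11 were the 3 lower members whose intervals exclude no change, against 7.09% of all genes. PCDHGA11 went from 15 to 5 counts, 3.94-fold lower (1.36 to 13.9), while PCDHGC3 was 1.51-fold higher (1.22 to 1.86).

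The control lines were set side by side to place the levels. These comparisons use the same COV318-CTR libraries as those with COV318-MGP. Here too, many members are in the count table only through COV318-CTR, so lower values in OVCAR3-CTR were partly fixed in advance. In bulk 49 of 52 members were lower in OVCAR3-CTR than in COV318-CTR, against 28.2% of all genes, with a median log2 fold change of -4.53 for the members. In OCSC 48 were lower, against 29.4% of all genes, with a median of -4.01. The beta sum was 63.3-fold lower in bulk (44.8 to 92.7) and 25.3-fold lower in OCSC (19.3 to 33.7). Alpha was 59.1-fold and 19.2-fold lower and gamma 17.6-fold and 8.61-fold lower. PCDHGC3 was among the few that were close, 1.87-fold lower in bulk (1.38 to 2.56) and 1.11-fold higher in OCSC (0.871 to 1.43). PCDHB15 was close too, with 9.25 normalized counts against 8.08 in bulk and 7.47 against 8.92 in OCSC.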

How the data were processed

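Total RNA had been made into libraries and sequenced as paired 50 nt reads. The authors aligned them to hg38 with STAR (2.7.5c in the submitters' processing notes) and deposited raw counts per gene for 8 libraries. They also deposited a normalized signal, each count divided by DESeq2's median-of-ratios size factor. Several kits are named, some strand-specific, and the kit of each library, the annotation and the strand setting of counting are not given in the sources used here, so reads of overlapping or antisense genes may be mixed. Each of the 20339 genes had at least 10 counts in 1 library or more.

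Size factors were recomputed over the 15518 genes with counts in all 8 libraries, and normalized counts differed from the deposited signal by at most 7.55e-10 of their value. Log2 fold changes were taken on log2(normalized count + 1). A change was called at a size of 1 or more, over all genes with no filter. Intervals are exact Clopper-Pearson intervals of a ratio of 2 counts at 95%, or exact Poisson intervals of a sum. A library at 0 was set to 3 counts for a bound. With 1 library per condition no test was run, and the functions were tested on simulated data.

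Groups came from the sample labels. The members and all gene lists were chosen with earlier results of these data known. Named genes were the C-type members, the 3 members with the highest summed normalized count in alpha, beta, gamma A and gamma B, members with more than 10 counts in both COV318-MGP libraries, and from each list the 3 highest genes and those past the threshold in both cultures of a line, from which examples are given. Other members named in the text were chosen after their values were seen. Gene models were GENCODE 44. Arrays and intervals were computed in Python 3.11.15 (numpy 2.4.6, scipy 1.17.1). Tables were read with pandas 2.3.3, plots drawn with matplotlib 3.10.9, and TMM factors came from edgeR 4.0.16 under R 4.3.3. The alternatives were TMM, CPM, median of ratios within each pair, pseudocounts of 0.5 and 5, a minimum of 10 counts, an interval that excludes no change, a threshold of 2, and the deposited signal. Some items are not reported here.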

Additional observations from a re-analysis of the deposited data

Results flagged for a closer look

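PCDHB14 moved in opposite directions between cultures in the control lines. Its log2 fold change of OCSC against bulk was -1.89 in COV318-CTR, with 383 counts in bulk and 37 in OCSC, and 1.81 in OVCAR3-CTR, with 3 counts in bulk and 20 in OCSC. Both counting intervals exclude no change. The difference between the lines was not tested, since each condition had 1 library, and the OVCAR3 value rests on the 3 counts in bulk.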

How the results depend on the processing

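The counts of members lower in COV318-MGP, and of members lower in OVCAR3-CTR than in COV318-CTR, stayed within 1.5 times of the value given under all 9 alternatives. The number higher in OVCAR3-MGPKO in bulk, 30, became 11 with a pseudocount of 5, 12 with a minimum of 10 counts, 6 when the interval had to exclude no change and 7 at a threshold of 2. In OCSC, 22 became 8, 10, 7 and 8 under the same settings. The 18 members lower in COV318-CTR OCSC became 7 at a threshold of 2. The 13 lower in OVCAR3-CTR OCSC became 0 with a pseudocount of 5, 1 with a minimum of 10 counts, 0 when the interval had to exclude no change and 3 at a threshold of 2. The 10 lower in OVCAR3-MGPKO OCSC became 3, 4, 3 and 3. TMM, CPM, the median of ratios within each pair, a pseudocount of 0.5 and the deposited signal moved no count by more than 1.5 times. Of the cluster sums of COV318-MGP and OVCAR3-MGPKO against their controls, the only sums recomputed under TMM, CPM and within-pair factors, 1 left its interval, the gamma sum in COV318-MGP bulk, with a log2 ratio of -4.26 in place of -4.56 under CPM. With all exon bases in place of unshared ones, 4 of the 5 highest members per kilobase in COV318-CTR bulk were shared. Leaving out a replicate was not possible with 1 library per condition. No paired analysis was possible because each condition had 1 library and the labels number no replicates. Depth limits the OVCAR3 and COV318-MGP values most, where the median member had 0.5 to 5 counts.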
